A study of Mus musculus with 2 samples.

Results

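Flanking sites here are stretches of open chromatin that lie a short distance from a gene's annotated transcription start. They are set by distance from the starts used, so they can include promoters of other starts. DNase-seq measures open chromatin with the nuclease DNase I, which cuts accessible DNA more often than DNA wrapped in nucleosomes. Peaks of both libraries were merged where they overlapped by at least 1 bp, and a merged region was kept if it held a peak of each library. A region counted as flanking if its midpoint lay over 1 kb and at most 5 kb from the nearest start of a protein-coding gene. This gave 8049 flanking regions among 60596 shared regions. The other shared regions were 20882 at most 1 kb from a start, 22203 at over 5 kb and up to 50 kb, and 9462 farther away. The rule used position and the presence of a peak in both libraries, so sites called in only 1 library were left out before signal and the ratio between libraries were read (single libraries gave 10666 and 11963 flanking regions). It used no footprint, sequence or gene function.

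The tissue was spleen of male B6CASTF1/J mice aged 4 days. These animals are first-generation hybrids of the C57BL/6J and CAST/EiJ strains, untreated as far as the labels say, and the deposited lists do not separate the parental alleles. There was 1 group of 2 biological replicates. The labels give the males different numbers under a single donor record. Without a second group no contrast between conditions exists, and 2 libraries cannot give a two-sided sign test p below 0.5, so every comparison below is a description with both libraries' values. The deposited lists held 80323 and 88723 peaks, and 217159 and 252901 footprints, in replicates 1 and 2. Signal is the authors' value per peak on a scale that is not stated and that differs between the libraries, and the read depth behind it is unknown. Errors are the SD of both libraries (n = 2). Intervals are exact binomial 95% intervals over regions, which share libraries and often genes, and they do not measure the spread between animals.

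Start sites of active genes are usually flanked by nucleosomes with active marks, and the few kilobases around them can hold proximal enhancers, alternative first exons and sites of insulator proteins. In the newborn mouse the spleen still makes blood cells, chiefly red cells. GATA1 and its partners TAL1, KLF1 and NF-E2 drive the red cell programme, and GATA1 binds the letters AGATAA or TGATAA on either strand. Markers were read from promoters: 93.6% of 47 erythroid, 90.5% of 21 blood stem and progenitor, 80.8% of 26 B cell and 68.2% of 22 neutrophil and myeloid genes had an open promoter, beside 59.7% of all genes. Other blood lists lay below that background, with 37.0% of 27 T and NK cell, 42.3% of 26 macrophage and dendritic cell and 29.4% of 17 megakaryocyte genes. Of lists from outside the blood, the shares were 14.3% of 21 hepatocyte, 33.3% of 18 skeletal muscle, 33.3% of 27 endothelial and stroma and 59.1% of 22 neuron genes. Here a gene's promoter is called open if the 1 kb on either side of one of its starts touches a shared region. Fewer cells of a type and less accessible DNA per cell cannot be told apart in whole tissue.

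Among the 97 flanking regions of erythroid genes, 33 held GATA letters in the 200 bp around the midpoint (34.0%, interval 24.7 to 44.3%), compared with 16.5% of all flanking regions and 5.44% of regions at a start. The letters CCAAT were also more frequent at the erythroid regions, at 30.9% (interval 21.9 to 41.1%) beside 20.4% of all flanking regions. The following 200 bp windows are shown because they carry those letters at loci chosen by name. They are in the direction of the gene, on mm10, from the GRCm38 reference, with AGATAA or TGATAA, or their reverse complements TTATCT and TTATCA, in capitals. The Nfe2 window lay at chr15:103258441-103258640 on the minus strand, Slc4a1 at chr11:102363721-102363920 (minus), Zfpm1 at chr8:122287021-122287220 (plus), Gata1 at chrX:7971411-7971610 (minus), Alas2 at chrX:150549701-150549900 (plus), Tfrc at chr16:32610591-32610790 (plus) and Id1 at chr2:152739811-152740010 (plus).
Nfe2: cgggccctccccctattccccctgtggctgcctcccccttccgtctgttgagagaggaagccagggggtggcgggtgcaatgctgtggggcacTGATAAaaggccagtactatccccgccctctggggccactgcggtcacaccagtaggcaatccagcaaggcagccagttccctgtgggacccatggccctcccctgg
Slc4a1: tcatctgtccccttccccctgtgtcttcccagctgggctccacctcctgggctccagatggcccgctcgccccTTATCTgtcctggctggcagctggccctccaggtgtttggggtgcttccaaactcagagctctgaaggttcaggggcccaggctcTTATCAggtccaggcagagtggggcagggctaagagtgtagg
Zfpm1: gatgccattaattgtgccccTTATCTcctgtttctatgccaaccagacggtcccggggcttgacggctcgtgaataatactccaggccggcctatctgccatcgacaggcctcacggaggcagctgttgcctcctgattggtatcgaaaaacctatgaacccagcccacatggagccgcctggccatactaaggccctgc
Gata1: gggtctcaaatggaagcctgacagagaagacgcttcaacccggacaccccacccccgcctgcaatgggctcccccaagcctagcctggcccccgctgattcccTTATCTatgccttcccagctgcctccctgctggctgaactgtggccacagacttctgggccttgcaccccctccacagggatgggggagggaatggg
Alas2: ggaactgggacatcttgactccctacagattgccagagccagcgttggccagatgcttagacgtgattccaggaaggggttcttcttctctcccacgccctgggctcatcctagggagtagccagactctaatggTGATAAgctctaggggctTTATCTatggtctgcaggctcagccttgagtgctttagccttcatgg
Tfrc: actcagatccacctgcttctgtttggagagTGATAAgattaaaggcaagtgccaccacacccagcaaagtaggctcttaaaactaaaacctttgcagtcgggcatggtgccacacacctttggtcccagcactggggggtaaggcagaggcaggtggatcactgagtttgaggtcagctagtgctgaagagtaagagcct
Id1: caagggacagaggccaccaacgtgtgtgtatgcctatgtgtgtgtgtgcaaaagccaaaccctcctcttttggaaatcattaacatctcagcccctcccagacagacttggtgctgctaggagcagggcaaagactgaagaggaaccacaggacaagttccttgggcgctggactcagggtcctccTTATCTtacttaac

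Of these 7 windows, those of Slc4a1 and Alas2 held 2 matches each, and that of Tfrc is 72.5% masked repeat. A match touched a footprint found in both libraries at Gata1 and at Alas2, with 1 match each, and at none of the other windows. Footprints are brief gaps in the cutting pattern, where a bound protein can shield DNA from the nuclease. Only the Gata1 window also held an E-box, CANNTG, followed after 7 to 9 bases by AGATAA, a spacing known from sites bound jointly by TAL1 and GATA1. This composite was rare: 45 of 8049 flanking windows held it (0.559%), and 0.101% of start windows did.

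More flanking regions lay inside the transcribed side than before the start. Downstream of the start there were 4524 (56.2%, interval 55.1 to 57.3%) and upstream 3525 (43.8%). The downstream side also offers more sequence, because starts differ in spacing: 93.8 Mb of the genome lay 1 to 5 kb downstream of its nearest start and 85.2 Mb upstream. Per megabase the density was 48.3 downstream and 41.4 upstream, a ratio of 0.857. The difference came mainly from the nearest steps. At 1 to 2 kb the density was 79.5 regions per Mb downstream and 55.6 upstream, and at 2 to 3 kb it was 43.4 and 38.3. At 3 to 4 kb both sides had nearly the same density, with 35.7 and 35.6, and at 4 to 5 kb the order was opposite, with 30.9 downstream and 33.9 upstream. Within 500 bp of the start the upstream side was denser, with 731 regions per Mb against 439, whereas at 500 to 1000 bp the downstream side was, with 222 against 117.

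**Figure D1:**
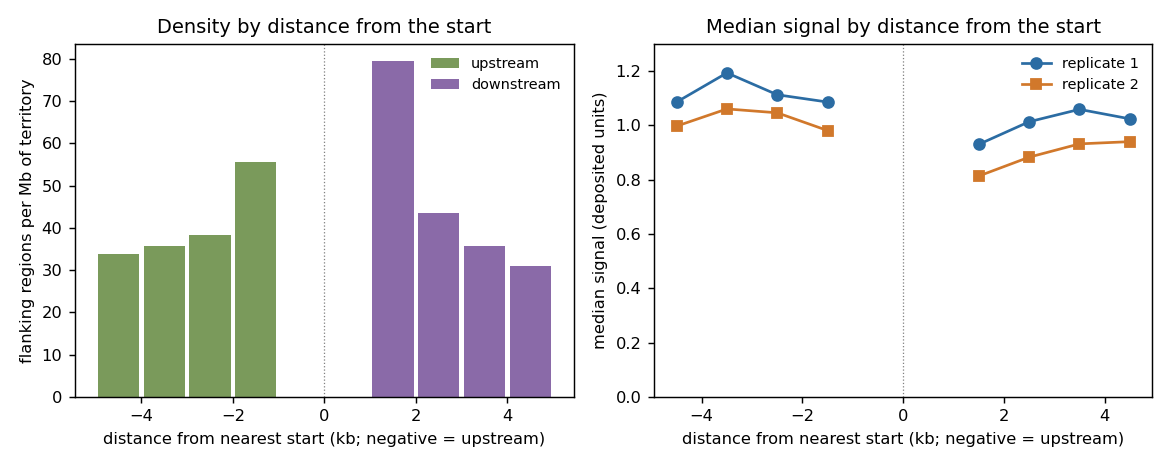
Left, flanking regions per Mb of territory in 1 kb steps of distance from the nearest start, upstream in green and downstream in purple; right, median deposited signal in the same steps for replicate 1 (blue circles) and replicate 2 (orange squares). Density peaks at 79.5 per Mb in the first downstream step, where the median signal is lowest in both libraries.

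Downstream sites were more frequent near the start but weaker. The median signal of flanking regions was 1.03 in replicate 1 and 0.924 in replicate 2. Upstream it was 1.11 and 1.02, and downstream 0.989 and 0.871. The ratio of upstream to downstream was 1.13 in replicate 1 and 1.17 in replicate 2 (1.15 ± 0.0311 SD, n = 2), so both libraries placed the upstream side higher. The weakest step in both libraries was 1 to 2 kb downstream, with medians of 0.930 and 0.813. Signal there was also lower than 1 to 2 kb upstream, where the medians were 1.09 and 0.981. The strongest step was 3 to 4 kb upstream, at 1.19 and 1.06.

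Flanking regions had a signal well under that of promoters and slightly over that of remote sites. Relative to regions at a start, their median was 0.393 in replicate 1 and 0.426 in replicate 2. It was 1.12 and 1.08 times the median of regions at 5 to 50 kb and 1.63 and 1.50 times that of regions beyond 50 kb. Regions on either side of each limit of the class had like signal. The 571 regions at 900 to 1000 bp had medians of 0.919 and 0.842, and the 474 at 1000 to 1100 bp had 1.01 and 0.871. At the outer limit, 129 regions at 4900 to 5000 bp had 0.925 and 0.842, and 135 at 5000 to 5100 bp had 0.984 and 0.895. Overlapping footprints of both libraries, described below, differed more at the inner limit, with 57.8% at 900 to 1000 bp and 67.7% at 1000 to 1100 bp, than at the outer one, with 81.4 and 81.5%. In all, 17 shared regions of any class were equally near 2 starts.

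A flanking region was typically narrow. Its median width was 200 bp, with quartiles of 180 and 240 bp. In the deposited stricter peak lists, 64.2% of flanking regions touched a peak of both libraries, compared with 69.1% of all shared regions and 84.0% of regions at a start.

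Footprints were found at most flanking sites. Replicate 1 had a footprint in 92.1% of them and replicate 2 in 93.5%, and 187 regions (2.32%) had none in either. Overlapping footprints of both libraries, a stricter measure, occurred in 76.5% of flanking regions, beside 77.8% of all shared regions. By this measure the upstream side had 81.8% (interval 80.5 to 83.1%) and the downstream side 72.3% (71.0 to 73.6%). The gap was smaller in each library taken singly: 94.0% upstream and 90.6% downstream in replicate 1, and 95.1% and 92.2% in replicate 2.

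Because footprints are easier to call where there are more cuts, the shares were also compared at like signal. All shared regions were ranked by the mean of both libraries' signals, each divided by its library median, and split into quartiles. In the weakest quartile 49.7% of upstream and 42.9% of downstream flanking regions had overlapping footprints. In the second the shares were 79.7 and 67.8%, and in the third 93.7 and 88.4%. In the strongest they were 99.4 and 99.0%. At regions within 1 kb of a start the shares were lower through the first 3 quartiles, at 37.7, 50.9 and 70.4%, and at 5 to 50 kb they were 54.5, 80.9 and 95.1%. Downstream flanking sites therefore stood between promoters and remote sites, and upstream ones near the remote sites. The side also differed among introns alone: 80.0% of 706 upstream regions in an intron and 73.0% of 3478 downstream ones had overlapping footprints.

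**Figure D2:**
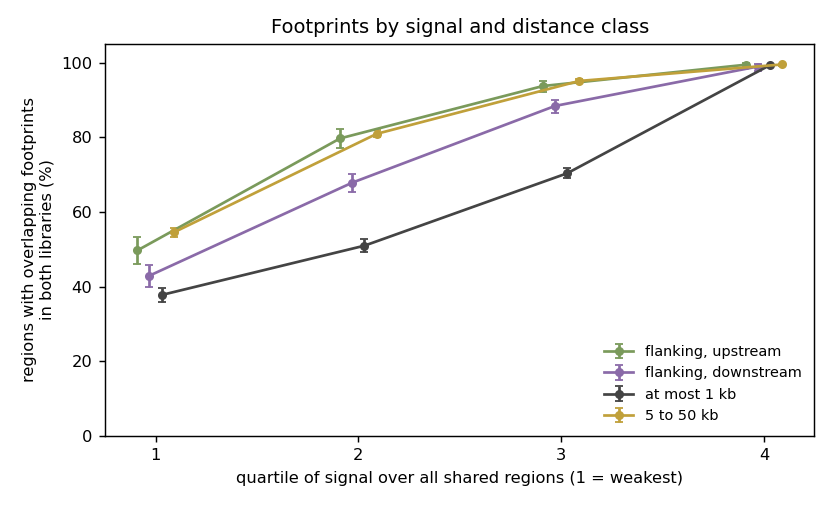
Share of regions with overlapping footprints in both libraries, by quartile of signal over all shared regions; points are shares and bars exact binomial 95% intervals. Upstream flanking regions lie with those at 5 to 50 kb in quartiles 2 and 3, downstream ones lie lower (67.8 and 88.4%), and regions at most 1 kb from a start lie lowest.

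Most flanking regions had left the CpG-rich sequence of the promoter. CpG ratio here means observed over expected CpG in the 200 bp window. Its median was 0.295, against 0.780 at starts and 0.256 at 5 to 50 kb. The decline was visible inside the class on the downstream side, from 0.380 at 1 to 2 kb to 0.279, 0.244 and 0.250 in the following steps. Upstream it went from 0.314 to 0.252. A ratio of at least 0.5 was found in 2017 regions (25.1%). CpG-rich upstream regions were the strongest of the 4 combinations, with medians of 1.63 and 1.50, while CpG-poor upstream regions had 1.02 and 0.956. Downstream, the CpG-rich had 1.07 and 0.918 and the CpG-poor 0.968 and 0.846. Overlapping footprints were found in 82.9% of CpG-rich and 81.5% of CpG-poor upstream regions, but in 68.1% and 73.9% downstream.

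Some flanking sites lay in continuous accessible sequence that came within 1 kb of their start. The deposited lists of positions with an FDR under 0.05 were joined into continuous stretches, and 929 flanking regions (11.5%) lay in a stretch that reached the 1 kb window of their start in both libraries. Of these, 98.1% lay within 2 kb, 66.8% were downstream, and their median CpG ratio was 0.527. Their median distance was 1110 bp, so the edge of a region near the limit can itself reach the window. Being joined therefore does not show that a stretch covered the start. Their signal was 1.35 in replicate 1 and 1.19 in replicate 2. The 6829 regions joined in neither library had medians of 1.00 and 0.895, a CpG ratio of 0.271 and a median distance of 2676 bp. Joined regions made up 30.4% of those 1 to 2 kb downstream and 23.6% of those 1 to 2 kb upstream. Overlapping footprints were found in 69.6% of joined and 78.0% of separate regions.

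The annotation of the sites followed their side of the start. Downstream, 76.9% of midpoints lay in an intron, 12.4% in a coding exon, 3.76% in a 3′ UTR and 1.08% in a 5′ UTR. Upstream, 63.5% were intergenic, 20.0% in an intron and 11.5% in a gene of another type. The 561 downstream sites in coding exons were weak, with medians of 0.849 and 0.740, had a CpG ratio of 0.612, and showed overlapping footprints in 63.5%. The 87 upstream sites in a 3′ UTR were stronger, at 1.58 and 1.43, with footprints in 87.4%.

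Part of the class lies near starts that the rule did not use. A start of a gene of another type was within 1 kb of 565 flanking regions (7.02%), of which 366 (4.55%) were near a long noncoding RNA start. Over all shared regions these shares were 9.43 and 6.46%, and at 5 to 50 kb 6.10 and 3.59%. Within 1 kb of 1211 regions (15.0%) lay a start of a protein-coding gene in the comprehensive annotation that was not among the starts used. Transcripts of any type counted for this, including noncoding ones. That share was 20.4% downstream and 8.20% upstream. Transcription from these starts was not measured here.

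For every motif searched but the CCACACCC form of the KLF motif, the share of flanking windows lay between those of start and of 5 to 50 kb windows. The counts are matches of fixed letters on both strands in the 200 bp windows. They describe sequence and say nothing of which factor was bound. The SP box GGGCGG was in 18.4% of flanking, 55.7% of start and 13.8% of 5 to 50 kb windows. The KLF search took CCACACCC or CCGCCC, the latter being the reverse complement of the SP box, and the CCACACCC form alone was in 4.73% of flanking, 3.0% of start and 4.40% of 5 to 50 kb windows. The ETS core CCGGAA was in 6.56% of flanking, 18.6% of start and 5.29% of 5 to 50 kb windows. GATA letters went the other way, with 16.5, 5.44 and 18.4%. RUNX letters TGTGGTT were in 5.75, 2.17 and 6.52%, and AP-1 letters TGAGTCA in 4.67, 2.09 and 5.19%. NF-E2 letters, a longer form that contains the AP-1 site, were in 0.571, 0.115 and 0.671%. PU.1 letters GAGGAAGT were in 3.38, 2.09 and 4.25%.

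How often a match touched an overlapping footprint varied widely by motif. A match counted if at least 1 of its bases lay in a footprint, so longer letters can touch one more readily. GATA letters and the SP box have 6 bases each, PU.1 letters 8, CTCF letters 12 or 13 and the E-box with GATA 19 to 21. Footprints covered 14.1% of the bases of flanking windows, a share per base that is no baseline for whole matches. A footprint was touched by 9.35% of 278 PU.1 matches, 15.7% of 1542 GATA matches, 15.9% of 1945 CCAAT matches and 17.0% of 400 AP-1 matches. The part of length in the differences between motifs was not tested. The letters of the CTCF motif, recognised by the insulator protein CTCF, were in only 116 flanking windows (1.44%). Of the 116 matches, 112 touched a footprint (96.6%). For NRF1 letters it was 13 of 16 matches (81.2%), for NF-E2 letters 29 of 51 (56.9%), for the E-box with GATA 20 of 45 (44.4%) and for the SP box 45.7% of 2073. CTCF letters were more frequent at 5 to 50 kb (2.97%) than at flanking sites, and rare at starts (0.263%).

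Genes with a flanking site usually had an open promoter too. The nearest gene was open for 6676 flanking regions (82.9%), beside 76.6% of regions at 5 to 50 kb and 76.5% beyond. Over all shared regions it was 85.5%, which includes the regions within 1 kb, where the gene is open by definition. In the flanking class 45 were open only through the flanking region itself. For the 6631 with another region at the promoter, the flanking signal was a median 0.205 of the promoter signal in replicate 1 and 0.219 in replicate 2. In 771 of them (11.6%) the flanking site was stronger than the promoter in both libraries. That happened upstream in 13.9% and downstream in 9.91%. Another 1373 regions, at 1073 genes, belonged to genes without an open promoter. Their signal was 0.957 and 0.895, they lay farther out (median 2859 bp against 2264.5 bp) and had overlapping footprints in 83.6%, compared with 75% next to open promoters.

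In all, 5249 of 21827 protein-coding genes had at least 1 flanking site (24.0%). A single site was found at 3590 genes, 2 at 1023, 3 at 363 and more at the rest, up to 12. Of genes with an open promoter 32.1% had one, and of closed genes 12.2%. Sites lay upstream at 2724 genes, downstream at 3281 and on both sides at 756.

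The gene lists differed in how many of their genes had a flanking site. Immediate early and AP-1 genes, which respond within minutes to growth signals, had one at 24 of 26 (92.3%), and erythroid genes at 39 of 47 (83.0%), beside 24.0% of all genes. Signalling and feedback genes followed with 24 of 38 (63.2%) and blood stem and progenitor genes with 12 of 21 (57.1%). Cell cycle and neutrophil lists had 15 of 30 and 11 of 22. Constitutively expressed genes were near the background although all of their promoters were open: ribosomal protein genes had 12 of 40 (30.0%) and proteasome and respiratory chain genes 10 of 34 (29.4%), beside 32.1% of all open genes. Lists of 26 B cell and 27 endothelial and stroma genes had 12 and 9, and the 27 T and NK cell, 26 macrophage and dendritic cell and 17 megakaryocyte genes had 6, 5 and 4.

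**Figure D3:**
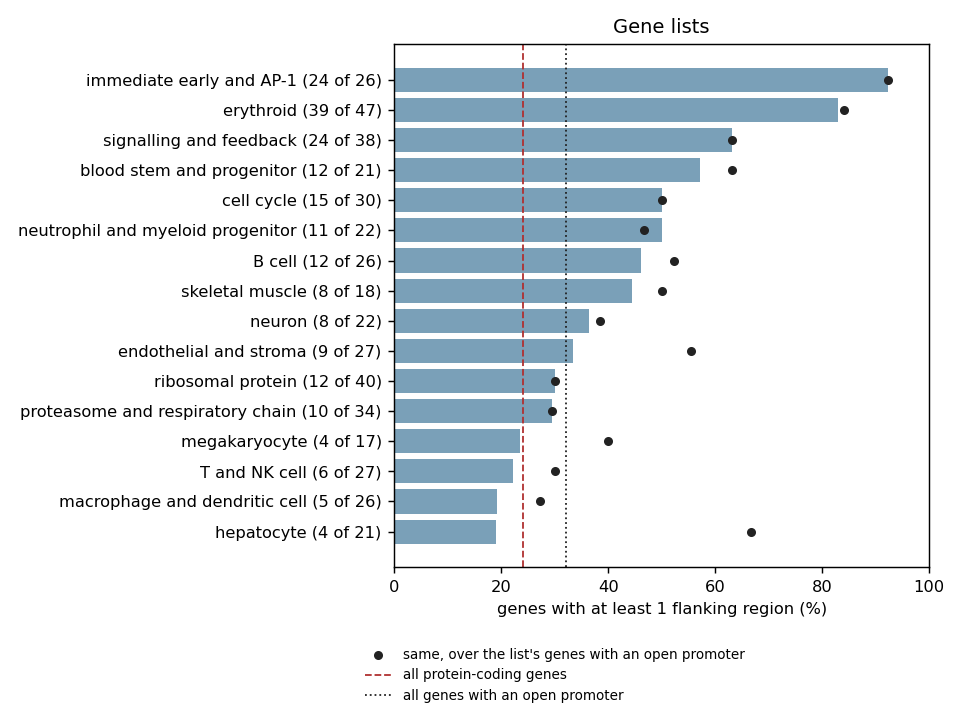
Share of each list's genes with at least 1 flanking region (bars, with counts beside the names) and the same share over the list's genes with an open promoter (dots); lines mark all protein-coding genes (24.0%) and all genes with an open promoter (32.1%). Immediate early and erythroid genes stand highest, and ribosomal and proteasome genes lie near the lines.

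Territory differs between genes, so density was also taken. Per Mb of sequence 1 to 5 kb from their starts, immediate early genes had 321 flanking regions, erythroid genes 228, signalling genes 193, cell cycle genes 149 and stem and progenitor genes 138, beside 45.0 for all genes, 66.5 for ribosomal and 25.7 for hepatocyte genes. The 97 erythroid sites had median signals of 1.61 and 1.29, and the 69 immediate early sites 1.58 and 1.51, both above the 1.03 and 0.924 of all flanking sites in each library. So were 7 other lists, among them megakaryocyte (2.80 and 2.63, 6 sites), neuron (1.90 and 1.41, 18 sites), proteasome and respiratory chain (1.68 and 1.58, 12 sites), T and NK cell (1.49 and 1.46, 10 sites) and stem and progenitor genes (1.47 and 1.23, 35 sites). The 61 signalling sites had 1.09 and 0.879, above the class in replicate 1 and below it in replicate 2. The erythroid sites had a median CpG ratio of 0.211 and the immediate early sites 0.502. GATA letters were in 33 of 97 erythroid windows and 7 of 69 immediate early windows, and the SP box in 11 and 24. Of all flanking windows with a CpG ratio under 0.5, 19.2% held GATA letters. Overlapping footprints were found at 73 of 97 erythroid sites (75.3%) and 57 of 69 immediate early sites (82.6%).

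Erythroid sites were spread over regulators, haem enzymes, membrane proteins and globins. Nfe2 had 9, Dmtn 6, and Zfpm1, Alad, Epb41 and Trim58 had 5 each. Dmtn and Epb41 encode proteins of the membrane skeleton, and Alad the second enzyme of haem synthesis. At Epb41 all 5 lay upstream, at Alad all 5 downstream. The 4 adult globin genes Hbb-bt, Hbb-bs, Hba-a1 and Hba-a2 had 3, 2, 1 and 1, values that are uncertain because each pair is nearly identical in sequence. Uros, Cpox, Car1, Car2, Trim10, Slc25a37 and Bcl2l1 were among the erythroid genes with none. Among immediate early genes, Junb and Ier2 had 7 each, Zfp36l1 and Zfp36l2, which encode RNA decay factors, had 5 each, and only Ier3 and Mcl1 had none.

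Among red cell regulators the strongest flanking site belonged to Nfe2, the blood-specific subunit of NF-E2. It lay 3102 bp upstream (chr15:103258361-103258720, intergenic) with a signal of 13.5 in replicate 1 and 11.7 in replicate 2, and a start of the comprehensive annotation lies within 1 kb. Another Nfe2 site, 1064 bp downstream in an intron, had 6.86 and 6.05 and is itself the strongest region that reaches the promoter window. The other 7 ranged from 0.50 to 4.07 in replicate 1 and from 0.544 to 2.92 in replicate 2. Klf1, which activates adult globin genes, had 1 site, 1263 bp downstream in a coding exon (chr8:84903081-84903300), at 11.5 and 10.7. The Klf1 promoter had 4.34 and 3.46, so in both libraries the site exceeded it, but it lies in a stretch joined to the start window in both.

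Gata1 had 1 site, 3601 bp upstream (chrX:7971401-7971620, intergenic), with a signal of 5.22 and 3.86 beside 3.01 and 2.35 at the promoter. Zfpm1, which encodes the GATA1 cofactor FOG-1, had 5 intronic sites, the strongest 4980 bp downstream (chr8:122287021-122287220) at 5.93 and 4.40. All 5 were far below the Zfpm1 promoter, at 29.0 and 26.0. Gfi1b, a repressor needed for red cells and platelets, had 2, at 4874 bp (4.04 and 3.48) and 1066 bp downstream (0.968 and 0.674), beside 2.46 and 2.32 at the promoter. The Tal1 sites were 3 in number, at 1.18 to 1.64 in replicate 1 and 0.862 to 1.20 in replicate 2, under the promoter's 7.78 and 4.84.

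Genes of the red cell's own products showed the same variety. Slc4a1, the anion exchanger band 3, had a site 1459 bp downstream in an intron (chr11:102363701-102363940) at 9.08 and 6.85, above its promoter at 6.09 and 5.01, and a start of the comprehensive annotation lies within 1 kb. Alas2, the first enzyme of haem synthesis in red cells, had one 2342 bp downstream in an intron (chrX:150549681-150549920) at 3.09 and 2.35, above 1.23 and 0.977 at the promoter. Tfrc, the receptor that takes up iron, had 2 intronic sites at 1.70 and 1.65 and at 1.35 and 1.20, while the promoter had 20.8 and 16. The window of the first Tfrc site is 72.5% masked repeat, and the site held 1 overlapping footprint. Epor, the erythropoietin receptor, had 1 in a coding exon, 1815 bp downstream, at 1.27 and 1.10 beside 17.6 and 11.1. A start of the comprehensive annotation lies within 1 kb of the Epor site. Of these loci, Nfe2 apart, the strongest flanking site was the stronger one at Klf1, Gata1, Gfi1b, Slc4a1 and Alas2 and the weaker one at Zfpm1, Tal1, Tfrc and Epor, in each library. Over all 6631 flanking regions with another region at the promoter, 11.6% were the stronger one in both libraries. That share is per region, and none was computed for the strongest site of every gene. The loci were chosen by name, so they do not give a share for erythroid genes.

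**Figure D4:**
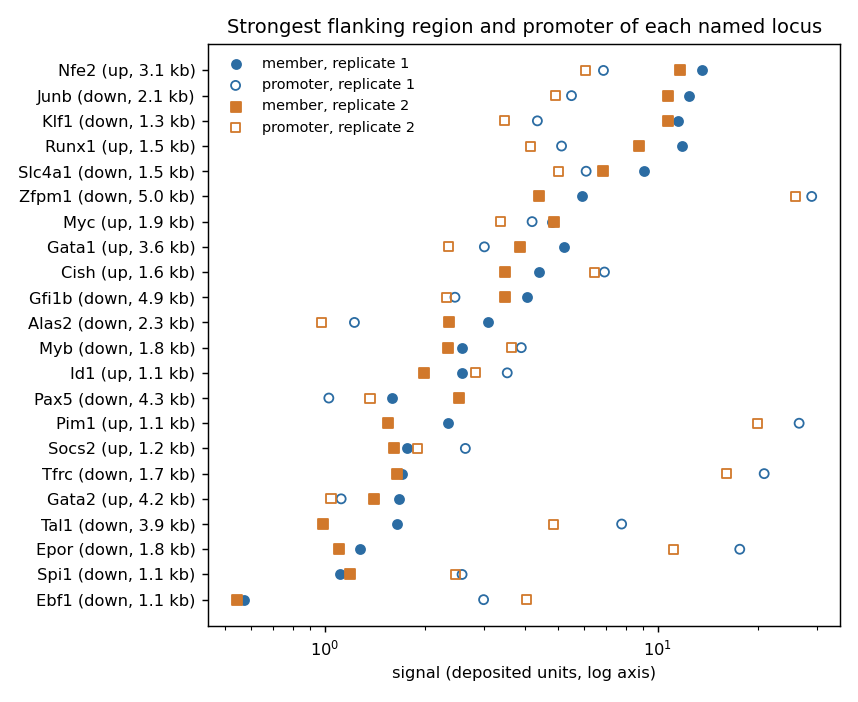
Signal on a log axis of the strongest flanking region (filled) and of the strongest other region that reaches within 1 kb of a start (open) at the named loci, for replicate 1 (blue circles) and replicate 2 (orange squares); names give the side and distance of the flanking region. Nfe2 leads at 13.5 and 11.7, and Ebf1 is lowest at 0.570 and 0.544.

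Sites of stem and progenitor regulators varied widely in signal. Runx1, required for the first blood stem cells, had 4, the strongest 1503 bp upstream of a start in an intron (chr16:92698741-92698920) at 11.8 and 8.79, joined to the start window. Gata2 had 1, 4150 bp upstream, at 1.67 and 1.40, with a start of a gene of another type within 1 kb. Myb had 3 in its first kilobases, at 1.33 to 2.58 in replicate 1 and 1.22 to 2.34 in replicate 2. The weakest Myb site is joined to the start window and has a start of the comprehensive annotation within 1 kb. No flanking region was found at Lmo2, Kit or the myeloid factor gene Cebpa. Spi1, which encodes PU.1, had 1 at 1.11 and 1.19, without an overlapping footprint. That site is joined to the start window and has a start of the comprehensive annotation within 1 kb. The B cell factor genes Ebf1 and Pax5 had 2 and 5, and the strongest, 4267 bp downstream in a Pax5 intron (chr4:44706061-44706220), had 1.59 in replicate 1 and 2.52 in replicate 2.

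At targets of cytokine signals and early response genes, flanking sites ranged from well below to above the promoter. Junb, an AP-1 subunit, had 7, led by sites 2067 bp downstream (chr8:84976561-84976740, 12.4 and 10.7) and 1323 bp upstream (8.53 and 8.06), both above the promoter's 5.50 and 4.93. The first has a start of the comprehensive annotation within 1 kb, and the second lies in a stretch joined to the start window. Myc had 1, 1930 bp upstream (chr15:61983381-61983540), at 4.80 and 4.88 beside 4.19 and 3.36, with a start of a gene of another type within 1 kb. Cish and Socs2, feedback inhibitors induced through STAT5, had 1 each upstream, at 4.40 and 3.47 and at 1.77 and 1.61, both under their promoters. Pim1, a STAT5-induced kinase, had 2, at 2.34 and 1.55 and at 1.24 and 1.29, beside 26.5 and 19.9. The Socs2 site and the first Pim1 site have starts of the comprehensive annotation and of a gene of another type within 1 kb. That Pim1 site is also joined to the start window. Id1, an inhibitor of E-box factors, had 3, the strongest 1050 bp upstream at 2.58 and 1.98. Smad6, which restrains BMP signals, had the strongest site of the signalling list, 1042 bp upstream (8.83 and 7.72, promoter 2.41 and 2.15), joined to the start window.

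Regions were ranked over both libraries by the lower of their signals, each divided by its library median. None of the 5 strongest flanking regions on either side was at a gene of the erythroid list. Highest was a site 1205 bp upstream of Gm11168 (chr9:3002041-3002240), at 39.1 and 45.5. Its window is 100% masked repeat, the nearby promoter has 299.7 and 193.3, and reads of repeat copies cannot be placed with certainty, so the value is uncertain. Next upstream came Kpna1, an importin (26.1 and 34.3), Cpeb4, a regulator of translation (26.5 and 21.7), Nemf, of ribosome quality control (22.7 and 24.3), and Map1lc3b, the autophagy protein LC3 (24.4 and 20.3). A start of a gene of another type lies within 1 kb of the Kpna1 and Nemf sites. Cpeb4's own promoter had only 1.67 and 1.15, and its site is joined to the start window.

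Downstream the leaders by this ranking, which passes over a region with 26.3 in replicate 2 alone, were Chd2, a chromatin remodeller (24.1 and 23.6, intron, near starts of the comprehensive annotation and of a gene of another type), Angptl6, a secreted protein (23.0 and 18.7, coding exon), Cbx7, a Polycomb subunit (23.8 and 17.2), Mnt (22.2 and 15.9) and Mxi1 (17.0 and 16.8), the last pair joined to the start window. MNT and MXI1 both pair with MAX in place of MYC. No shared region reached the Angptl6 promoter, and its site held 8 overlapping footprints. Chd2's promoter had 2.20 and 1.67.

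A few cell type lists were led by a site much stronger than the promoter of its gene. Lck, the T cell kinase, had one 1741 bp downstream in an intron (10.6 and 7.52, promoter 1.67 and 1.01). Itga2b, the platelet integrin subunit, had one 2612 bp downstream in an intron (11.3 and 9.54, promoter 0.790 and 0.621). A start of the comprehensive annotation lies within 1 kb of each. Cebpb, a myeloid factor, had one 3584 bp upstream (8.30 and 9.37, promoter 4.66 and 3.65). By contrast Ccnd3, cyclin D3, had its strongest at 11.1 and 9.50 under a promoter of 25.1 and 14.8. By the lower of the scaled signals, the macrophage list was led by H2-Aa (1.69 and 2.42), the B cell list by Pou2f2 (1.87 and 2.09) and the endothelial list by Egfl7 (1.97 and 1.81). These were below the leading sites just named but above the class medians in both libraries, and the strongest Pax5 site exceeded Pou2f2 in replicate 2.

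Genes with the most flanking sites differed in how strong those sites were. Prnd had 12 and Trem1 10, all weak: from 0.0914 to 0.634 in replicate 1 at Prnd and from 0.0645 to 0.177 at Trem1, both below the class median of 1.03. In replicate 2 they ranged from 0.0981 to 0.605 and from 0.0572 to 0.221. Kdm6b, which removes the H3K27 methyl mark, had 10 stronger ones, from 1.03 to 8.49 in replicate 1 and from 1.13 to 7.26 in replicate 2, with no region at its single basic start. Nfic had 10 and Cic 9, a mixture of weak and strong. The top Nfic sites had 6.99 and 6.56 and 6.46 and 4.94, and the other 8 were under 0.5 in both libraries.

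The libraries ranked flanking sites alike. Across the 8049 regions Spearman's rho between the libraries' signals was 0.948, a description over regions of 2 libraries, compared with 0.989 at starts, 0.932 at 5 to 50 kb and 0.900 beyond. The log2 ratio of replicate 1 to replicate 2 was centred by subtracting 0.16, the median over the shared regions of every class. Its median was -0.010 at flanking sites, -0.039 upstream and 0.0087 downstream. It was 0.079 at starts and -0.055 at 5 to 50 kb, so flanking sites lay between. Beyond 2-fold, 9 flanking regions (0.112%) were higher in replicate 1 and 25 (0.311%) in replicate 2, against 0.145% and 0.447% of all shared regions.

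Sites of B cell genes leaned to replicate 2. Of 19 flanking regions at the list's genes, 18 had a centred ratio below 0, with a median of -0.33, whereas 51.3% of all flanking regions lay below 0. Regions at the starts of the same list did likewise, with 28 of 33 below 0 (84.8%, beside 38.0% of all start regions). Lists with fewer sites leaned the same way: skeletal muscle had 7 of 9 flanking and 4 of 5 start regions below 0, and hepatocyte 4 of 4 and 2 of 2. Flanking sites of several other lists also lay mostly below 0, such as 21 of 33 cell cycle, 22 of 35 stem and progenitor and 8 of 12 proteasome and respiratory chain sites. Fewer of the start regions of these lists did, with 18 of 63, 22 of 52 and 11 of 42. All 5 Pax5 sites were on the side of replicate 2, from -0.83 to -0.14. Erythroid sites leaned slightly the other way, with 38 of 97 below 0 (39.2%) and a median of 0.050. So did signalling (27 of 61), ribosomal protein (7 of 17) and megakaryocyte sites (1 of 6). A difference between the animals in the number of B cells, one per cell, and one between the libraries, whose depth is unknown, cannot be told apart.

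**Figure D5:**
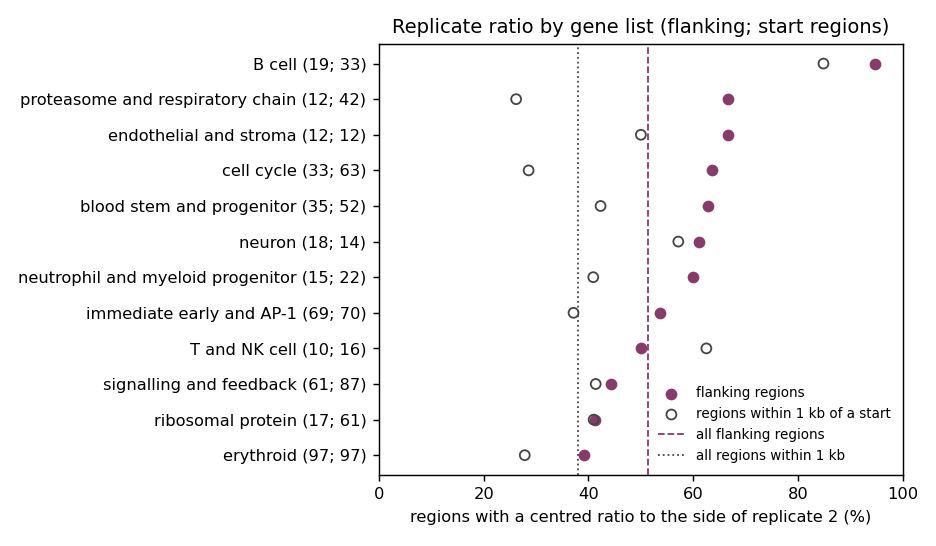
Share of regions whose centred ratio lies on the side of replicate 2, for flanking regions (filled) and regions within 1 kb of a start (open) of each list with at least 10 flanking regions; numbers beside the names are the regions of each kind. Of the lists drawn, B cell is highest on both measures, at 94.7 and 84.8%, and dashed and dotted lines mark all flanking (51.3%) and all start regions (38.0%).

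Among flanking sites ranked above the median of the class, by the lower of their scaled signals, the largest ratios to replicate 2 were at Cnp (0.952 in replicate 1, 1.87 in replicate 2), Mettl17 (1.60 and 3.05) and a repeat-covered site of Gm11168 (3.56 and 6.55). Those to replicate 1 were at Ifna13, an interferon gene with no open promoter (14.4 and 6.30), Npas1 (2.41 and 1.19) and Metap2 (2.79 and 1.41). With 1 library on each side no error can be attached to these differences.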

How the data were processed

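DNase-seq data of 2 spleen libraries were used. The authors deposited, per library, 2 peak lists with a signal per peak, a footprint list with an FDR (q-value) of 0.01 in every line, and a list of positions with an FDR (q-value) under 0.05, all on mm10 per the file headers. Peaks were called per library. For the aligner and callers, names and versions were not given in the sources used here. Signal below 1 moves in steps that differ between libraries, so levels were compared within a library or as centred ratios; depth is unknown, and footprints and weak peaks depend on it.

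The longer peak lists were merged (1 bp overlap). A region's signal is its highest peak, and its side and distance come from its midpoint, since no summit is given. Starts were the 41433 of protein-coding transcripts of 21827 protein-coding genes in the GENCODE vM21 basic annotation. Footprints overlapping by 1 bp counted as found in both libraries. CpG ratio, masked share and motifs were read in 200 bp windows. Regions per Mb used the bases whose nearest start lies at that distance on that side. Tools were samtools 1.23.1, matplotlib 3.10.9, pysam 0.24.0, scipy 1.17.1, pandas 2.3.3, numpy 2.4.6 and Python 3.11.15, and the distance and side assignment was tested on simulated data.

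The flanking class, the 16 gene lists, the motifs and the named loci were chosen with earlier results of these data known. Named were the 5 strongest regions on each side, the strongest of each list, a set of loci chosen by name, the 5 genes with the most regions, and, of members above the class median by the lower of both scaled signals, the 3 with the most extreme ratio toward each library. Some items of these lists are not reported here. No test across groups was possible. Alternatives were a stricter peak list, 50% reciprocal overlap, each library alone, other starts, other distance limits and other summaries of signal, footprints and promoters. Tf of the hepatocyte list was not matched in the annotation.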

Additional observations from a re-analysis of the deposited data

How the results depend on the processing

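The limits of these values are the 2 libraries, the unknown depth and signal scale, and the annotation that defines a start. The following alternatives were chosen after seeing the data: starts of protein-coding transcripts in the comprehensive annotation, leaving out members over 50% masked, and leaving out those joined to the start window. The number of flanking regions (8049) was 5208 with the stricter peak list and 4757 from 2 kb on; single libraries gave 10666 to 11963. The number of genes (5249) was 3495 from 2 kb on and 6179 to 6483 in single libraries. The upstream share (43.8%) was 46.0% with stricter peaks, 44.8% with 50% reciprocal overlap and 39.1% with only the most upstream start. It was 43.4% without members near other genes' starts, 46.8% from 2 kb on and 45.0% with comprehensive starts. Without masked members it was 43.0%, without joined members 45.2%, and in single libraries 42.2 to 42.3%. Territory per side was not recounted for these runs. In the main run it was 85.2 Mb upstream and 93.8 Mb downstream, so a share below 50% does not by itself show a denser downstream side. The footprint share (76.5%) was, in the same order, 88.0, 80.9, 75.7, 76.7, 80.1, 77.3, 75.9 and 77.4%, and 85.0 to 85.4% in single libraries and 97.7% with a footprint of either. The upstream minus downstream footprint gap was 9.54 percentage points and 2.60 to 3.19 in single libraries. There a footprint of that library alone counts, and so do regions called only in that library. In the same order as above, the gap was 6.93, 8.91, 10.5, 9.22, 6.43, 8.21, 9.85 and 8.50 points. The share with an open nearest gene (82.9%) was, again in that order, 78.9, 80.4, 80.5, 82.8, 79.3, 84.0, 82.7 and 81.1%, with 85.2 to 85.7% in single libraries and 80.7% with a promoter window of 500 bp. Upstream over downstream signal (1.15) was 1.11 with the most upstream start, and flanking over start signal (0.410) was 0.369 with reciprocal overlap, 0.379 with the most upstream start and 0.430 to 0.437 in single libraries. The cause of these shifts was not tested. The median replicate ratio stayed between -0.022 and 0.0052. Of 137 named regions, 108 were still members with stricter peaks and 112 with the most upstream start. No paired analysis was possible because there is 1 group.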

Other observations

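Flanking sites on chromosome X were sparser and weaker than on autosomes. The X had 173, or 21.7 per Mb of its flanking territory, with median signals of 0.597 in replicate 1 and 0.580 in replicate 2, compared with 46.5 per Mb and 1.05 and 0.932 on the autosomes. Males carry a single X, and its part in these values was not tested. Shared regions of all classes on the X had medians of 0.669 and 0.621, beside 1.08 and 0.989 over all chromosomes. Chromosome Y had 1 flanking region. Chromosome 11 was the densest, with 801 regions and 63.8 per Mb, and chromosome 14 the sparsest autosome, with 34.5 per Mb.

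Genes of tissues outside the blood had some flanking sites too. Of 18 skeletal muscle genes 8 had one (44.4%) and of 22 neuron genes 8 (36.4%), beside 24.0% of all genes, and of 21 hepatocyte genes 4 (19%). Dlg4, which encodes the synaptic scaffold PSD-95, had the strongest, 2722 bp downstream in an intron (chr11:70021481-70021720), at 14.6 and 13.6 beside a promoter of 1.40 and 1.50. Casq1, the calcium-binding protein of muscle, had one in an intron, 2537 bp downstream, at 5.44 and 5.62, with no open promoter. Apoa1, the main protein of high-density lipoprotein, had one in a coding exon at 1.15 and 1.12, also with no open promoter. Among the constitutively expressed genes Psmc2, a proteasome ATPase, had the strongest, at 9.31 and 7.99 against 7.01 and 6.00 at its promoter.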
